A study of Mus musculus with 4 samples.

Results

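The response to interleukin-4 (IL-4) was examined in primary epidermal keratinocytes of male mice that the labels call HMGB1 KO. It was taken as the deposited log2 value of the KO array with IL-4 minus that of the KO array without it, for each transcript cluster, the array's unit for a gene. Clusters were kept where the highest value over the 4 arrays of the series reached 5.33, the median of all table values. This left 11456 of 22206 transcript clusters. The groups were KO with recombinant IL-4 at 100 ng/ml for 12 h, KO untreated, wild type (WT) with the same IL-4 treatment, and WT untreated, with 1 array each. All cultures were male, primary and kept in the same keratinocyte medium. K5-HMGB1 is the name of the mutant in the series' design text. The sources used here do not state its construct, the age of the mice or any pooling. With 1 array a side no difference has a replicate error or a p-value, and precision is limited by having so few arrays.

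IL-4 is a cytokine of type 2 immunity. On epithelial cells it binds a receptor made of IL-4Ralpha (gene Il4ra) and IL-13Ralpha1 (Il13ra1), and on blood cells IL-4Ralpha can instead join the common gamma chain (Il2rg). Kinases of the Janus family bound to these chains, TYK2 among them, phosphorylate STAT6, which enters the nucleus and binds DNA. In skin, IL-4 is known for lowering the expression of barrier proteins of the upper epidermal layers, a feature of atopic dermatitis. HMGB1 is an abundant chromatin protein that bends DNA and acts as an alarmin when released from cells.

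Hmgb1 itself had a log2 value of 7.60 in KO with IL-4 and 7.97 in KO untreated, against 14.17 in WT with IL-4 and 14.71 in WT untreated. Both KO values lay under 9.21, a level that 95% of the 5222 negative control rows did not exceed. Values under 9.21 are called low below, and differences that involve one are uncertain in size. Low values are not marked for every gene given by its difference alone. The KO arrays had 233 and 241 filtered clusters above 16, the limit of a 16-bit count on the log2 scale, with IL-4 and untreated; differences there are uncertain as well. Gene symbols came only from the 2 comparison tables the authors deposited, so 2568 filtered clusters had 1 symbol. Of these 1966 stood only in the table that compared the WT arrays, 288 in both tables, and 314 only in the table that compared the genotypes under IL-4. The genotype table was made with the KO IL-4 array, so the 314 clusters were partly chosen by a value used here.

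The sequences of 6 promoters of genes that moved in KO are shown first, because the results below return to them. They are RefSeq windows of GRCm38.p6, from 250 bases before to 50 bases after the gene start, with motif matches in capitals. The genes were picked as examples. Where a gene had several promoters, as Txnrd1 (3) and Il33 (2) did, the one with the most matches is shown. Gclm, Srxn1 and Txnrd1 belong to the glutathione and thioredoxin systems, and their capitals mark TGACNNNGC, the core of the antioxidant response element bound by NRF2, here read on the opposite strand. Slc7a11 encodes the cystine transporter, and its capitals mark TGATGCAA, a site type bound by ATF4, once on each strand. Ccnb2 encodes cyclin B2, and its capitals mark CCAAT and TTTGAA, the letters of the CCAAT box and of the cell cycle homology region. Il33 encodes the alarmin IL-33, and its capitals mark TTC and GAA with any 4 bases between them, the spacing STAT6 binds. RefSeq held a promoter for 947 of the 1279 genes on the lists used below. Both strands were searched, and no printed match overlapped another.
Gclm (chr3:122245307-122245606, plus strand): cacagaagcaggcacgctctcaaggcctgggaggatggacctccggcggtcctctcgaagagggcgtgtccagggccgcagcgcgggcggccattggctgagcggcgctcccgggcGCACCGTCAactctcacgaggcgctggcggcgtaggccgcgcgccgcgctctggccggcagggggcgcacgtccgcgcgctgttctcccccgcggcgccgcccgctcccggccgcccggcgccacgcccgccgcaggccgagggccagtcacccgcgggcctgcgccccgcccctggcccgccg
Srxn1 (chr2:152105274-152105573, plus strand): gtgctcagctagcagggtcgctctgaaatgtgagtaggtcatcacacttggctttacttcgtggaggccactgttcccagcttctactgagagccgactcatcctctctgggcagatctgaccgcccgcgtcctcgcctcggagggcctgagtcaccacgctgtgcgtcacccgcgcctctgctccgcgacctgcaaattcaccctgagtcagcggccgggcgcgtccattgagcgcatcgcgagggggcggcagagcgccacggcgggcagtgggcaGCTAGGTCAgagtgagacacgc
Txnrd1 (chr10:82858956-82859255, plus strand): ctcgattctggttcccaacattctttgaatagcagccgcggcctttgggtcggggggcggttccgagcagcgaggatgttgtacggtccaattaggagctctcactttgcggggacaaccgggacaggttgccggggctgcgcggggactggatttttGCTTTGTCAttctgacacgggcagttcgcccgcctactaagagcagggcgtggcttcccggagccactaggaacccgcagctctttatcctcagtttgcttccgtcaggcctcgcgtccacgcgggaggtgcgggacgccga
Slc7a11 (chr3:50443564-50443863, minus strand): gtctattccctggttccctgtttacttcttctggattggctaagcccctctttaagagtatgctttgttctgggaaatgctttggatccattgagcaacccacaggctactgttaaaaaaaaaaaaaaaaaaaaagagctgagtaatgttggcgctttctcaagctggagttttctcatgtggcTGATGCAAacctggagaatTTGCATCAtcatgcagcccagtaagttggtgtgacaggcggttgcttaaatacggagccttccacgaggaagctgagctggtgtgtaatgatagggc
Ccnb2 (chr9:70421505-70421804, minus strand): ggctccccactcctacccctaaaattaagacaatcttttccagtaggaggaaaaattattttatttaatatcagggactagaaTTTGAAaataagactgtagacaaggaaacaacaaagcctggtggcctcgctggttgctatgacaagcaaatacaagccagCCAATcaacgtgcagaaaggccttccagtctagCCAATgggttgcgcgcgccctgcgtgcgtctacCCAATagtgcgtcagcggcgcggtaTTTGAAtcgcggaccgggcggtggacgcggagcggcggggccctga
Il33 (chr19:29924863-29925162, plus strand): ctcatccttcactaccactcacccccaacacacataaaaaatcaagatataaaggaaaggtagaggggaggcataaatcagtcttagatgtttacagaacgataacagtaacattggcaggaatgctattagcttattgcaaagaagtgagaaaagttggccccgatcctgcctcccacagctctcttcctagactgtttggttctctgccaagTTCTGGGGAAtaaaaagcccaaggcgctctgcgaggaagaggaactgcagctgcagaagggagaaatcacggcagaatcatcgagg

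In KO, IL-4 went with a value at least 2-fold higher in 1045 filtered clusters (9.12%) and at least 2-fold lower in 1090 (9.51%). In WT 10.9% were higher and 9.39% lower by the same rule. "Rose" and "fell" are used below for clusters past this size threshold, which is no test. The falls were the larger changes. At 4-fold, 197 clusters rose and 394 fell, at 8-fold 66 and 157, and at 16-fold 20 and 67. Of the 1045 rises, 373 had both KO values at or above 9.21, 250 were low untreated only, and 422 were low on both arrays. Of the 1090 falls, 412 had both values at or above 9.21, 274 were low with IL-4 only, and 404 were low on both.

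The negative control rows show how far values without a target moved between the same arrays. Of 3217 such rows that passed the level filter, 33.6% differed at least 2-fold, against 18.6% of filtered clusters. With both KO values at or above 9.21, 25 of 182 control rows and 785 of 4904 clusters did. At 8-fold the shares were 3.17% of the control rows that passed the filter and 1.95% of clusters, and with both KO values at or above 9.21 they were 0 of 182 control rows and 60 of 4904 clusters. At 2-fold a single cluster is therefore not set apart from control rows, bright or not, and the 182 bright control rows are too few to show how often an 8-fold change would occur among them.

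**Figure D1:**
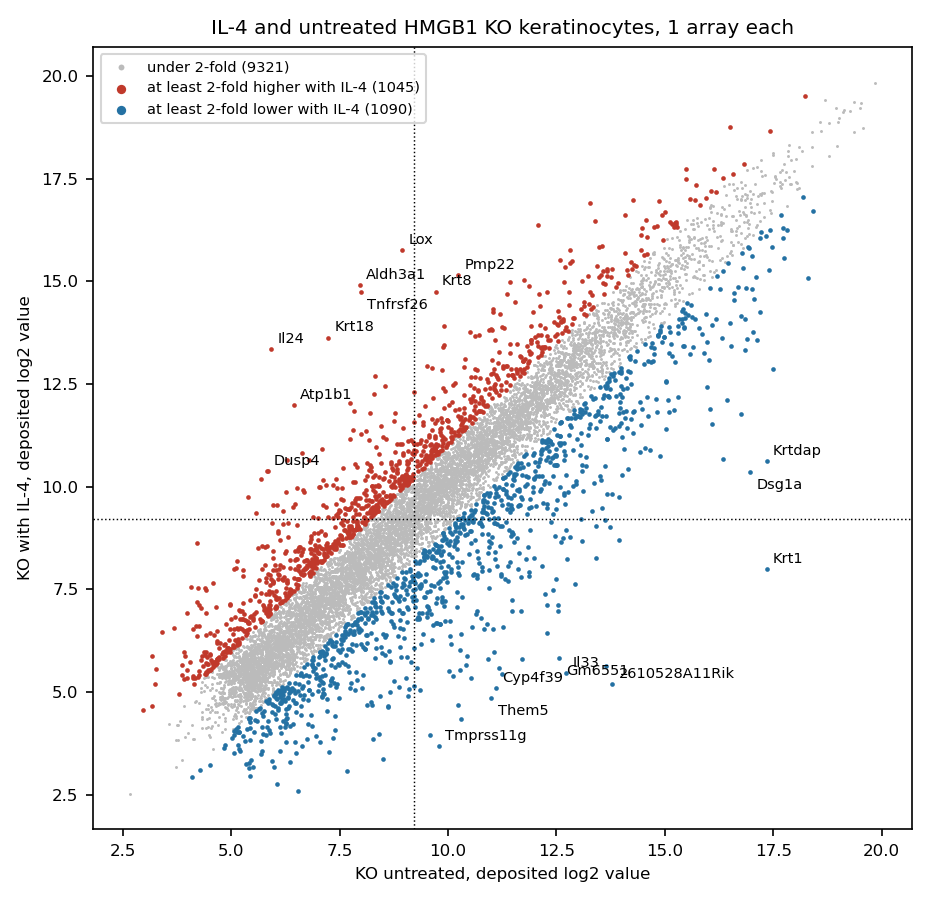
Deposited log2 values of 11456 filtered clusters in KO with IL-4 (vertical axis) against KO untreated (horizontal axis), 1 array each. Red points are the 1045 clusters that rose, blue points the 1090 that fell, and dotted lines mark 9.21; Krt1 lies farthest below the diagonal and Il24 farthest above it.

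Among clusters with 1 symbol, 679 rose (26.4%) and 806 fell (31.4%), which is the background for every gene list below. It was high because the tables list clusters that changed: among the 1966 clusters listed by the WT table alone, 28.7% rose and 30.8% fell in KO. Where both tables listed a cluster (288), 27.4% rose and 33% fell, and of the 314 in the genotype table alone 11.1% rose and 33.8% fell. Clusters without a single symbol rose in 4.12% and fell in 3.2% of cases. Most named members of the lists thus changed in WT as well, and their direction there was selected. Listed genes that neither table held could not be counted. Of the 100 clusters with the largest KO differences 98 had a single symbol. A further 339 rises and 259 falls had no symbol here, with a median size of 1.19 log2, against 1.74 for those with a symbol.

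The largest fall was in Krt1, a keratin of the suprabasal layers. Its log2 value was 7.99 in KO with IL-4 and 17.35 in KO untreated, a difference of -9.36. Krtdap, a secreted protein of differentiating keratinocytes, was at 10.62 with IL-4 and 17.35 untreated (-6.73). Dsg1a, a desmosomal cadherin of the upper epidermis, was at 10.35 with IL-4 and 16.96 untreated (-6.61). Krt1, Krtdap and Dsg1a were thus near the top of the scale in untreated KO cells, and only Krt1 went under 9.21.

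Il33, the alarmin shown above, was at 5.45 with IL-4 and 12.72 untreated in KO (-7.27). Thbd, which encodes the anticoagulant receptor thrombomodulin, was at 5.58 with IL-4 and 11.17 untreated (-5.60). Both genes were well above the control level untreated and low with IL-4. Other falls among the largest, between -8.59 and -5.28, were those of 2610528A11Rik, Gm6551, Them5, Tmprss11g, Cyp4f39, Gm6557, Muc15, Teddm3, Dsc1, Stfa1, Pla2g2f, Gsdmc, Il18 and Gm94.

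The largest rise was in Il24, a cytokine of the IL-10 family. It was at 13.35 in KO with IL-4 and 5.92 in KO untreated, a difference of 7.43. Aldh3a1, an aldehyde dehydrogenase, was at 14.91 with IL-4 and 7.96 untreated (6.95). Lox, the lysyl oxidase that cross-links collagen and elastin, was at 15.77 with IL-4 and 8.95 untreated (6.82). All of these were low untreated and far above the control level with IL-4.

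Pmp22, a membrane protein also known from myelin, was at 15.16 with IL-4 and 10.23 untreated (4.93). Plau, the urokinase plasminogen activator, was at 16.37 with IL-4 and 12.08 untreated (4.29). Abcc3, an efflux transporter, was at 13.91 with IL-4 and 9.90 untreated (4.01). These 3 had both values above the control level, although that of Plau with IL-4 passed 16. Of the 20 largest named rises 4 were of this kind, the other being Krt8. The remaining 13 rises, between 3.97 and 6.76, were those of Tnfrsf26, Krt18, Atp1b1, Dusp4, Slc4a11, Acta1, S100a7a, Nqo1, Ankrd1, Tsku, Gpr50, Gadd45a and Gsta2.

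**Figure D2:**
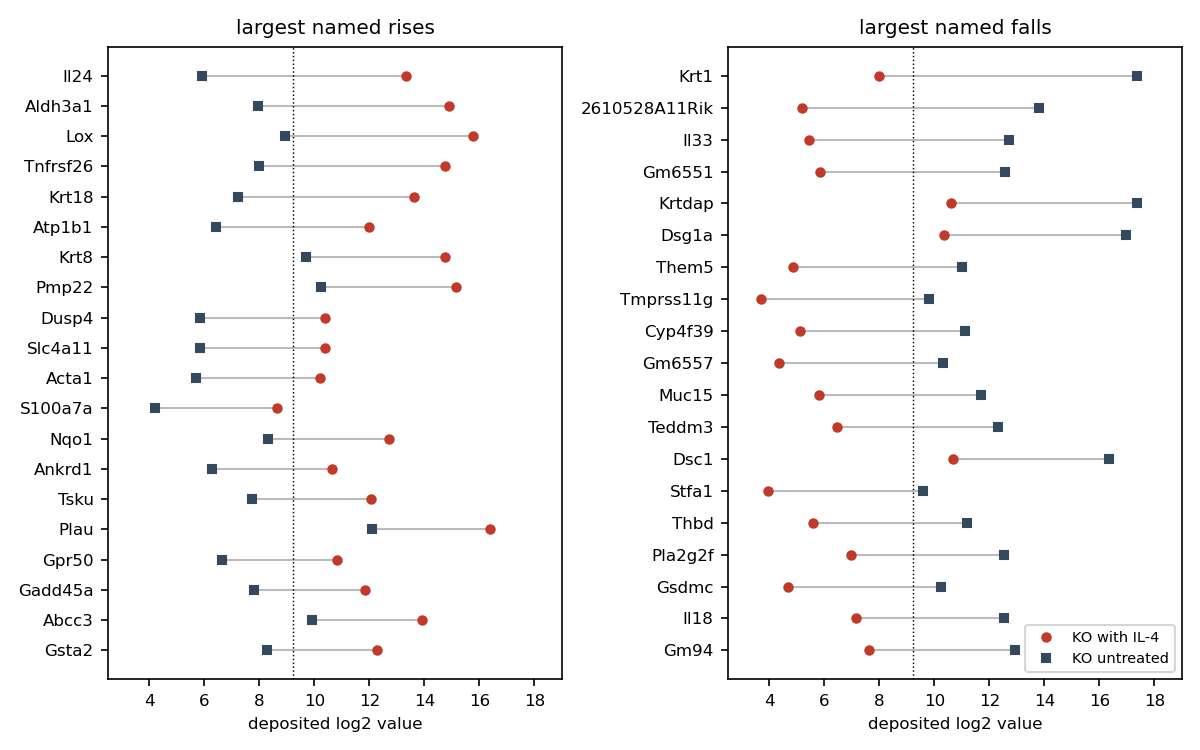
Deposited log2 values of the 20 largest named rises (left panel) and of 19 of the 20 largest named falls (right panel), with red circles for KO with IL-4, dark squares for KO untreated and a dotted line at 9.21. Most risen genes start left of the line untreated, and 16 of the 19 fallen genes end left of it with IL-4.

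The receptor and its signalling genes were covered thinly, with 7 of 18 listed genes named. Il13ra1, a chain of the IL-4 receptor of epithelial cells, was at 8.76 in KO with IL-4 and 11.59 in KO untreated, and fell by 2.83. Tyk2, the Janus kinase bound to that chain, was at 11.16 with IL-4 and 10.08 untreated (1.08). Irs1, an adaptor that the IL-4 receptor can use, was at 6.61 with IL-4 and 4.17 untreated (2.43), low on both arrays. So a receptor chain fell while a kinase and an adaptor rose.

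The named feedback inhibitors of cytokine signalling, Cish and Socs2, did not pass the threshold in KO. Cish was at 7.07 in KO with IL-4 and 6.88 in KO untreated, a difference of 0.19, where the WT difference was 1.29. Socs2 was at 7.19 with IL-4 and 8.17 untreated in KO (-0.98), and its WT difference was 1.55. The common gamma chain Il2rg was at 8.24 with IL-4 and 7.57 untreated (0.68), and its WT difference was 2.37. All of these values except that of Il2rg in WT with IL-4, at 9.56, were low. Cish, Socs2 and Il2rg stood in both tables, so their contrast with WT was partly selected. Of 31 listed IL-4 and STAT6 targets 5 were named: Il24 and the transferrin receptor Tfrc (2.36) rose, and Serpinb3b (-3.97), Clca2 (-2.42) and Serpinb3a (-1.85) fell.

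Genes of terminal differentiation made up the largest group of falls. Of 82 listed suprabasal keratin and cornified envelope genes 74 were named. In KO 62 of them fell, none rose and 12 stayed under 2-fold, with a median of -2.49, beside 31.4% falls and a median of 0.03 over all named clusters. All but 1 of the 74 were listed by the WT table, made without a KO array. All 73 listed there were lower in WT, so their direction in WT was selected. Krt10, the partner of Krt1, was at 8.70 in KO with IL-4 and 13.94 in KO untreated (-5.24). Ivl, the envelope precursor involucrin, was at 12.42 with IL-4 and 15.98 untreated (-3.56). Tgm1, the transglutaminase that cross-links the envelope, was at 9.48 with IL-4 and 13.56 untreated (-4.08). Filament keratin, envelope precursor and cross-linking enzyme were therefore all lower with IL-4.

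Many of these genes lie side by side in the epidermal differentiation complex, a gene cluster on chromosome 3. Between S100a7a and Flg (chr3:90651925-93293689 in GRCm38.p6, positions from RefSeq) 44 genes were named, of 55 protein-coding genes there. With IL-4, 35 of the 44 fell in KO, 1 rose and 8 were under 2-fold, with a median of -2.18. Flg, the filaggrin precursor that bundles keratin, was at 14.25 with IL-4 and 17.19 untreated (-2.94). Lor, the main envelope protein loricrin, was at 5.76 with IL-4 and 8.66 untreated (-2.90), low on both arrays. Hrnr (-4.56) and Rptn (-2.15), filaggrin-like proteins of the same list, fell too.

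Within the complex the gene families did not all move alike. Late cornified envelope genes of the Lce family were named 21 times, and 16 fell, with a median of -2.47 and a range of -4.49 to -0.22. Of the 6 Lce3 genes, which are known from wound repair and psoriasis, only Lce3c (-1.05) and Lce3d (-1.20) fell, and Lce3a (-0.43), Lce3b (-0.91), Lce3e (-0.33) and Lce3f (-0.89) were under 2-fold. Small proline-rich envelope proteins of the Sprr family were named 10 times, with 9 falls and a median of -1.85. Sprr1b was at 12.11 with IL-4 and 16.44 untreated (-4.32), while its neighbour Sprr1a was at 13.87 with IL-4 and 15.44 untreated (-1.57). Copies in these families are similar in sequence, so their signals may be shared.

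**Figure D3:**
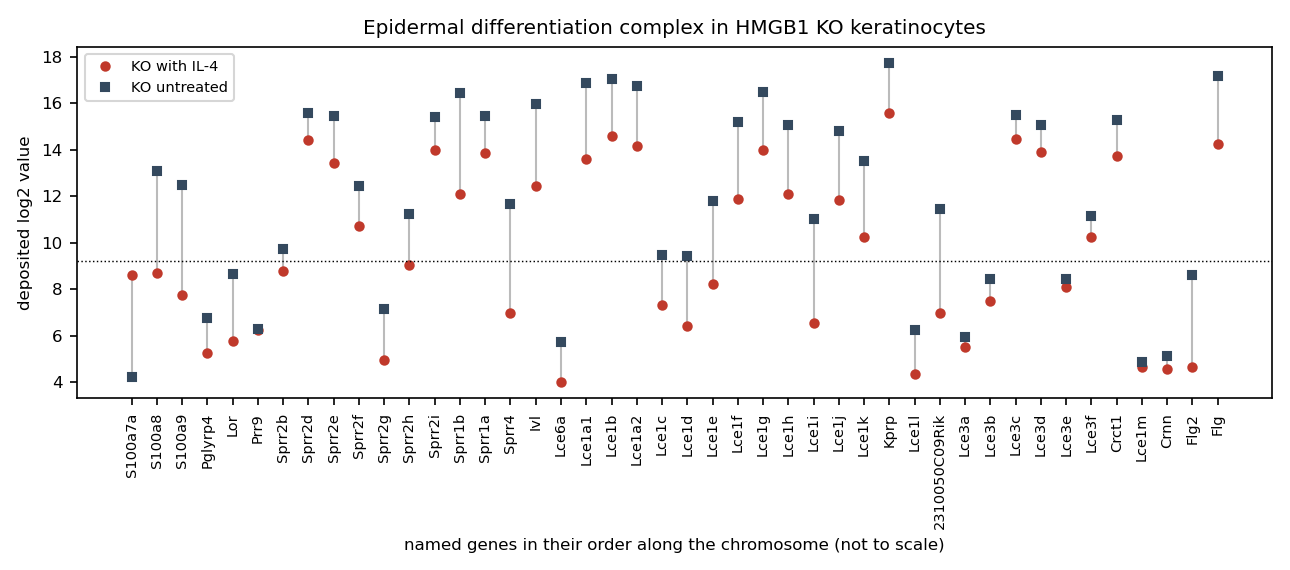
Deposited log2 values of the 44 named genes of the epidermal differentiation complex in chromosomal order, with red circles for KO with IL-4, dark squares for KO untreated and a dotted line at 9.21. The IL-4 circle lies below the untreated square for every gene except S100a7a, at the left end.

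Genes of desmosomes, which join keratinocytes to each other, moved both ways. The cadherins of upper layers fell: besides Dsg1a, Dsc1 was at 10.68 in KO with IL-4 and 16.33 in KO untreated (-5.65), and Dsg1b (-3.51) and Dsg1c (-4.44) fell as well. Dsg2, a desmoglein of simple and deep epithelia, was at 11.03 with IL-4 and 9.73 untreated (1.30). Its plakophilin partner Pkp2 rose by 1.98, low on both arrays. Dsc3 (-1.63) and Dsc2 (-1.26) fell less. Of 18 named junction genes 11 fell and 5 rose, a share of rises near the 26.4% over all named clusters. The connexin gene Gja1 fell by 2.35, whereas the tight junction genes Cldn7 (3.15, low on both arrays) and Cgn (1.34) rose.

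Barrier lipid genes supply the ceramides and fatty acids of the stratum corneum. Of 44 named members 30 fell and 6 rose, with a median of -2.09. In WT 34 were at least 2-fold lower and 9 higher. Of the 44, 43 were listed by the WT table, so their direction in WT was selected. Cyp4f39, which hydroxylates the ultra-long fatty acids of acylceramides, was at 5.09 in KO with IL-4 and 11.11 in KO untreated (-6.02). Cers3, the synthase of ultra-long-chain ceramides, was at 9.89 with IL-4 and 13.12 untreated (-3.24). Fabp5, the epidermal fatty acid binding protein, was at 11.76 with IL-4 and 16.75 untreated (-4.99). The members that rose were the desaturases Fads1 (1.59) and Fads3 (1.41), the cholesterol-esterifying Soat1 (1.66), the aldehyde dehydrogenase Aldh3a2 (1.21), the sphingomyelin synthase Sgms2 (2.40) and the lipoxygenase Alox12e (2.68). Of these Alox12e was low on both arrays. All 4 named cholesterol and fatty acid synthesis genes were above 0, with a median of 0.61.

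Skin proteases and the inhibitors that restrain them mostly fell. Of 40 named members 31 fell and 3 rose, with a median of -2.46. In WT 32 were at least 2-fold lower and 4 higher. Of the 40, 36 were listed by the WT table, so their direction in WT was selected. Klk5, a kallikrein that starts corneocyte shedding, was at 7.25 in KO with IL-4 and 11.48 in KO untreated (-4.23). Spink5, the kallikrein inhibitor LEKTI, was at 15.28 with IL-4 and 17.41 untreated (-2.13). Klk7, which Klk5 activates, was at 16.05 with IL-4 and 17.73 untreated (-1.67). Protease and inhibitor were thus lower in the same culture.

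The inhibitor families lie in gene clusters of their own. All 4 named Stfa genes on chromosome 16, cysteine protease inhibitors of the stefin A group, fell, with differences from -5.64 to -4.51. All 9 named Serpinb genes on chromosome 1 fell, most in Serpinb10 (-5.10) and least in Serpinb5, the tumour suppressor maspin, just at the threshold. The Serpinb genes on chromosome 13 were mixed, with Serpinb6c (-4.04) and Serpinb1a (-1.57) lower and Serpinb9b at 9.96 with IL-4 and 6.51 untreated (3.45). Members that rose included Tinagl1 (3.52) and the protease gene Prss22 (1.81).

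Regulators of differentiation mostly fell too. Of 30 named clusters of this list, 23 fell and 1 rose, with a median of -1.85. Ovol1, a repressor that drives exit from the basal layer, was at 6.96 in KO with IL-4 and 10.68 in KO untreated (-3.71). Klf4, a barrier transcription factor, was at 10.29 with IL-4 and 12.71 untreated (-2.42). Pou2f3 (-3.06), Grhl3 (-2.47), Zfp750 (-2.89), Cebpa (-2.86) and Dlx3 (-3.56) fell as well. The exception was Ets1 (1.37), a factor known for blocking terminal differentiation in mouse epidermis. Rora was measured by a pair of clusters, at -3.75 and -3.26.

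The opposite movement was seen in the named genes of the basal layer. Of 15 named integrin, laminin and basal marker genes 10 rose and none fell, with a median of 1.42, beside 26.4% rises over all named clusters. Of the 15, 14 were listed by the WT table, all as higher in WT, so their direction in WT was selected. Itga2, a collagen-binding integrin chain, was at 16.49 in KO with IL-4 and 14.58 in KO untreated (1.92). Lama3 (1.59) and Lamb3 (1.53), which encode chains of laminin-332, rose as well. Itgb4, the hemidesmosomal integrin, was at 16.49 with IL-4 and 15.52 untreated (0.97), just under the threshold. Several of these values lie near or above 16, where sizes are uncertain.

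Keratins of simple epithelia rose, while the stress keratin Krt16 fell. Krt18 was at 13.63 in KO with IL-4 and 7.23 in KO untreated (6.40), and its WT difference was 3.72. Krt8, its partner, was at 14.76 with IL-4 and 9.71 untreated (5.05), and its WT difference was 1.78. Krt16, a keratin of wounds and psoriasis, was at 15.08 with IL-4 and 18.31 untreated (-3.22). Krt7 rose by 1.05, less than its WT difference of 2.31, and the WT difference of Krt16 was -2.91. Krt7, Krt8 and Krt18 stood in both tables, so their contrast with WT was partly selected.

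Cytokines of the IL-1 family mostly fell. Of 16 named family members and alarmins 10 fell and 3 rose, with a median of -2.24. Il18 was at 7.13 in KO with IL-4 and 12.53 in KO untreated (-5.40). Il1rn, the natural antagonist of the IL-1 receptor, was at 8.64 with IL-4 and 12.61 untreated (-3.97). The IL-36 group was lower too, with Il1f5 (-3.63), Il1f8 (-3.08), Il1f9 (-2.70) and Il1f6 (-1.78). Il1a (1.07) and the receptor genes Il1r1 (1.63) and Il18r1 (1.05) rose, so antagonist and receptor moved in opposite directions. The STAT6-type motif shown above for Il33 was held by 5 of 15 named list members with a promoter (33.3%), by 27.3% of the whole list with a promoter and by 8.01% of all 27025 genes.

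The list of other cytokines and receptors had 14 rises and 4 falls among 21 named members, with a median of 1.91, and 6 of the rises were TNF receptor genes. Lif, a cytokine of the IL-6 family, was at 12.46 in KO with IL-4 and 8.54 in KO untreated (3.91). Csf1, the macrophage growth factor, was at 17.73 with IL-4 and 15.49 untreated (2.24). Tnf was at 9.32 with IL-4 and 7.41 untreated (1.91), and its WT difference was 4.61. Tnf stood in both tables, so its contrast with WT was partly selected. Il7 (3.50), Csf3 (3.07) and Il23a (2.88) rose among low values. The 4 falls were all receptor chains: Il20ra (-2.68) and Il20rb (-1.32), which form a receptor for IL-24, Il22ra1 (-2.61), which also can, and Tnfrsf1a (-1.76).

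The TNF receptor genes of this list that rose include decoy types. Tnfrsf26 was at 14.74 in KO with IL-4 and 7.98 in KO untreated (6.76). Tnfrsf22 (2.97), Tnfrsf23 (2.54) and Tnfrsf11b, the soluble receptor osteoprotegerin (3.31), rose as well. Among 9 named chemokine genes and receptors 4 rose and 2 fell, beside 26.4% rises and 31.4% falls over all named clusters. Cxcl1, a neutrophil attractant, was at 10.65 with IL-4 and 6.78 untreated (3.87), and Cxcl2 rose by 3.07, low on both arrays. Ccl2, a monocyte attractant, was at 9.46 with IL-4 and 8.36 untreated (1.10), and its WT difference was 3.05. Ccl2 stood in both tables, so its contrast with WT was partly selected.

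Feedback and target genes of NF-kB rose in the same culture, with 11 rises and 1 fall among 19 named. Tnfaip3, the ubiquitin-editing inhibitor of the pathway, was at 14.75 in KO with IL-4 and 12.27 in KO untreated (2.48). Icam1, an adhesion molecule for leukocytes, was at 12.47 with IL-4 and 10.12 untreated (2.35). Bcl3, an atypical inhibitor, was at 6.73 with IL-4 and 9.93 untreated (-3.20). Antimicrobial genes fell instead, with 8 falls and 1 rise among 11 named. S100a8 was at 8.68 with IL-4 and 13.08 untreated (-4.41), and its calprotectin partner S100a9 was at 7.76 with IL-4 and 12.48 untreated (-4.73). S100a7a, a psoriasin-type gene of the same cluster, was at 8.63 with IL-4 and 4.21 untreated (4.42), both low.

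Genes of the antioxidant and glutathione system had the highest median of the 23 lists with at least 9 named clusters. Of 30 named members 22 rose and 3 fell, with a median of 1.93, beside 26.4% rises over all named clusters. Of the 23 listed by the WT table alone or in both tables, 18 rose. Nqo1, a quinone reductase, was at 12.70 in KO with IL-4 and 8.32 in KO untreated (4.38). Gclm and Gclc, the subunits of the enzyme that limits glutathione synthesis, rose by 3.08 and 1.95. Txnrd1 (3.56) and Gsr (3.26), which regenerate thioredoxin and glutathione, and Srxn1 (2.04), which repairs peroxiredoxins, rose too.

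Some of these rises were absent or smaller in WT. Slc7a11, the cystine transporter, was at 13.83 in KO with IL-4 and 10.93 in KO untreated (2.89), whereas in WT it was at 12.26 with IL-4 and 12.39 untreated (-0.13). Gsta4, a transferase for lipid peroxidation products, was at 15.02 with IL-4 and 13.10 untreated in KO (1.92), and its WT difference was -0.13. With 1 array per group the difference between genotypes was not tested. Both were named through the genotype table, which used the KO IL-4 array. The list members that fell in KO were Prdx5 (-1.46), Ces2e (-1.44) and Gstm6 (-1.11).

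The promoter windows of Gclm, Srxn1 and Txnrd1 printed above each hold 1 TGACNNNGC match. The Txnrd1 window was taken from 3 promoters by its number of matches. Over the 26 named list members with a RefSeq promoter, 6 held the motif (23.1%), and over the 53 of the whole list with a promoter 14 did (26.4%). Among all 27025 genes with a promoter, 14.0% held it. These shares describe 300 bases a promoter and are not evidence of binding.

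Enzymes of aldehyde, alcohol and retinol metabolism moved both ways, with 9 rises and 6 falls among 17 named. Over all named clusters 26.4% rose and 31.4% fell, so the share of falls was near that background. Besides Aldh3a1, Adh7 was at 11.48 in KO with IL-4 and 8.45 in KO untreated (3.03), and Cyp1b1 rose by 3.02. Crabp2, a retinoic acid carrier, was at 10.85 with IL-4 and 14.43 untreated (-3.59). The other falls were those of Rdh12 (-3.60), Aldh3b2 (-2.43), Aldh3b3 (-3.14), Cyp2b19 (-3.61) and Cyp2s1 (-2.54).

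Matrix genes and proteases that cut matrix rose in part. Of 25 named matrix and TGF-beta genes 11 rose and 5 fell, with a median of 0.97. Over all named clusters 26.4% rose and 31.4% fell. Fn1, which encodes fibronectin, was at 16.92 in KO with IL-4 and 13.28 in KO untreated (3.64). Ctgf, a matricellular protein, was at 15.76 with IL-4 and 12.81 untreated (2.95). Tgfbi was at 10.44 with IL-4 and 14.14 untreated (-3.70), and Fbln1 (-2.94) and the activin antagonist Fst (-2.36) fell. Of 15 named matrix-cleaving and plasminogen activation genes 6 rose and 2 fell. Plaur, the urokinase receptor, rose by 3.30 and Timp2 by 2.62, while Mmp9 was at 10.04 with IL-4 and 7.36 untreated (2.69), and its WT difference was 5.27. Mmp9 stood in both tables, so its contrast with WT was partly selected.

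Contractile and mechanosensitive genes had 10 rises and no fall among 22 named. In WT 19 were at least 2-fold higher and 1 lower. Of the 22, 20 were listed by the WT table, so their direction in WT was selected. Acta1, skeletal muscle actin, was at 10.20 in KO with IL-4 and 5.69 in KO untreated (4.51), and Ankrd1, a target of YAP, was at 10.65 with IL-4 and 6.29 untreated (4.36). Acta2, smooth muscle actin, was at 15.49 with IL-4 and 15.47 untreated, a difference of 0.02, where the WT difference was 1.03. Of the growth factor list 7 of 26 named genes rose and 7 fell, near the 26.4% rises and 31.4% falls over all named clusters. The endothelin gene Edn1 (2.51), Pdgfb (2.51) and the neuropeptide gene Calcb (3.60) rose, and Epgn (-3.15), Fgfr3 (-3.15) and Wnt4 (-3.06) fell.

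Genes of glycolysis and the hypoxia response mostly fell, with 11 falls and 1 rise among 19 named and a median of -1.43. They mostly fell in WT too, with 14 lower and 3 higher at 2-fold and a median of -1.28. Slc16a3, the lactate exporter, was at 10.08 in KO with IL-4 and 13.36 in KO untreated (-3.28), whereas in WT it was at 13.16 with IL-4 and 13.09 untreated (0.07). Slc16a3 was named through the genotype table only, which used the KO IL-4 array, so its contrast with WT was partly selected. Egln3, an oxygen-sensing prolyl hydroxylase, was at 7.38 with IL-4 and 12.24 untreated (-4.86). Car12 (-4.95), Pfkl (-2.86), Pdk1 (-2.21), Tpi1 (-2.20) and Hif1a itself (-1.81) fell as well. Immediate early and MAPK feedback genes were divided: the early factors Egr3 (-3.98 and -3.45 in its pair of clusters), Egr1 (-1.72) and Jun (-1.68) fell, while the phosphatase Dusp4 was at 10.37 with IL-4 and 5.83 untreated (4.54) and Dusp6 (1.54) and Etv5 (2.16) rose.

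**Figure D4:**
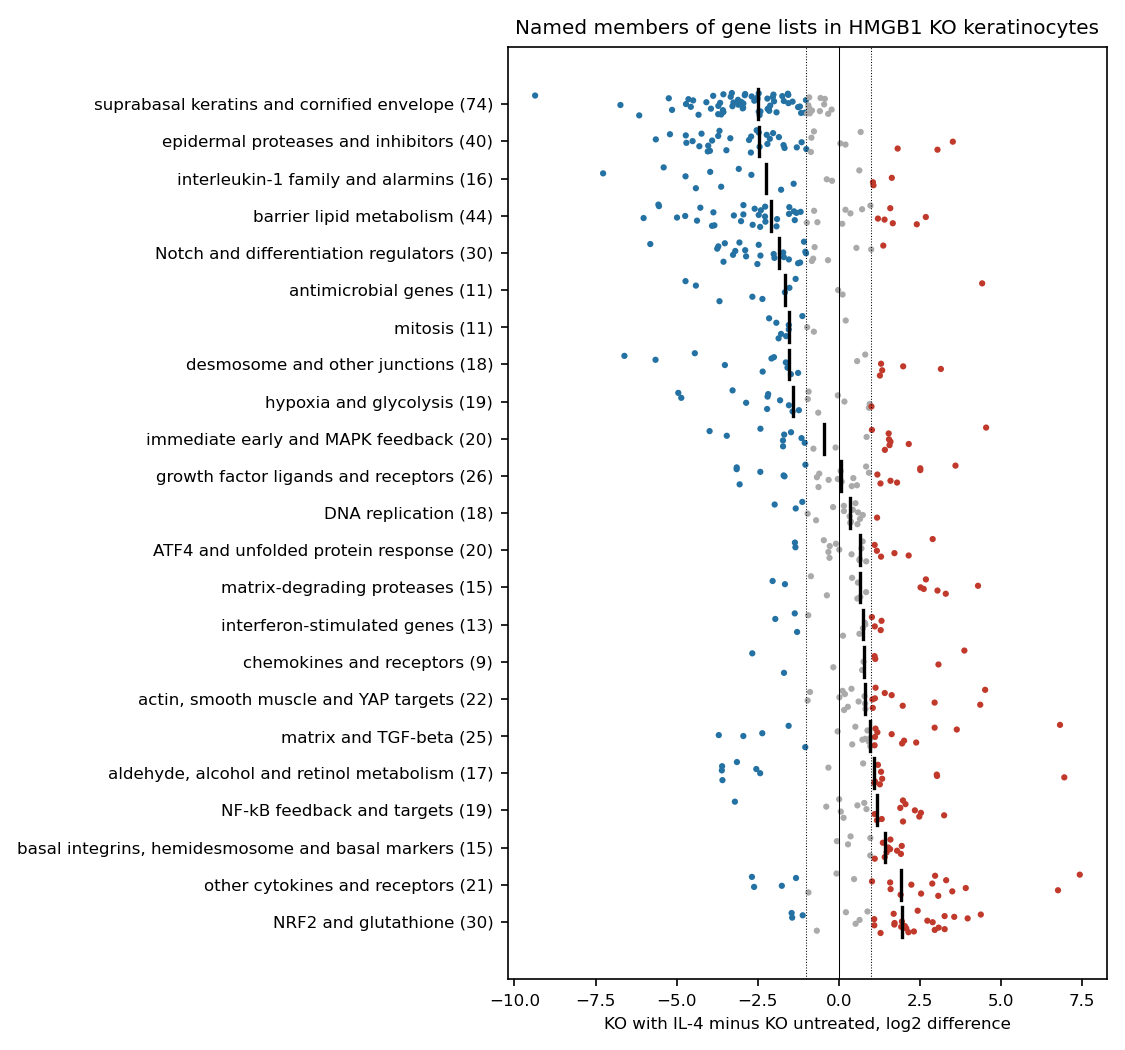
Log2 difference of KO with IL-4 minus KO untreated (horizontal axis) for each named member of the 23 gene lists with at least 9 named clusters, whose number is in parentheses. Red points rose, blue points fell, grey points were under 2-fold, and black bars are list medians, which run from -2.49 for the cornified envelope list to 1.93 for the NRF2 list.

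Genes driven by ATF4, the factor of the integrated stress and amino acid response, were mostly under 2-fold in KO. Of 20 named members 6 rose, 2 fell and 12 were under 2-fold, with a median of 0.64, where the WT median was -1.76. Of the 20, 19 had been listed by the WT table, all 19 as lower in WT, so the WT values were selected. Most KO values were not. Some members, Slc7a3 and Slc7a11 among them, stood in the genotype table, so their KO values with IL-4 were partly selected. Slc7a3 and Slc7a11 both rose in KO. Atf4 was at 14.25 in KO with IL-4 and 14.23 in KO untreated. Asns, asparagine synthetase, was at 15.16 with IL-4 and 14.76 untreated in KO (0.39), and its WT difference was -1.31. Psat1, of serine synthesis, was at 11.24 with IL-4 and 12.58 untreated (-1.34), one of the 2 falls.

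The untreated level differed between the genotypes for the same genes. Stc2, a secreted glycoprotein gene, was at 8.43 in KO with IL-4 and 6.27 in KO untreated (2.15), whereas in WT it was at 8.52 with IL-4 and 10.74 untreated (-2.22). Trib3, a pseudokinase gene of the pathway, was at 10.52 with IL-4 and 8.81 untreated in KO (1.72), whereas in WT it was at 9.99 with IL-4 and 11.45 untreated (-1.46). All 20 named members were lower in untreated KO than in untreated WT, with a median of -2.01, and with IL-4 the median of KO minus WT was 0.00. The genotypes thus differed at the median untreated and not with IL-4. Each of these values rests on 1 array, and the WT untreated array that selected the genes enters the untreated difference. The Slc7a11 promoter above holds 2 matches to TGATGCAA; 3 of 15 named members with a promoter held one (20%), and 1.03% of all genes did.

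Genes of cell division mostly fell in KO. Of 11 named mitosis genes 8 fell and none rose, with a median of -1.54, where the WT median was 0.14. Ccnb2 was at 8.17 in KO with IL-4 and 10.32 in KO untreated (-2.15), against 9.49 with IL-4 and 9.79 untreated in WT. Plk1, a mitotic kinase, was at 10.39 with IL-4 and 12.01 untreated in KO (-1.62), and its WT difference was 0.25. Ube2c, which marks cyclins for degradation with the anaphase-promoting complex, was at 10.78 with IL-4 and 12.71 untreated (-1.93). Of the 11, 10 were named only through the genotype table, for a low or high value in the KO IL-4 array, so their fall was partly selected; 10 of 11 were also higher in untreated KO than in untreated WT, with a median of 0.49. The single member from the WT table, Sgol2a, was at 0.21.

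Of 18 named DNA replication genes 3 fell and 1 rose, with a median of 0.34. The mitosis and replication lists were named mostly through different tables, 16 of the 18 here through the WT table, so they cannot be compared. The 2 replication genes from the genotype table alone, E2f8 (-1.33) and Exo1 (-0.96), were both lower. Mcm2, a subunit of the replicative helicase, had a difference of 0.16 in KO, with 10.15 in KO with IL-4, and its WT difference was 1.59. Rrm2, of nucleotide synthesis, was at 13.28 with IL-4 and 12.63 untreated (0.65). E2f2, a cell cycle transcription factor, fell by 1.98.

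Histone genes, which are transcribed mainly during DNA replication, fell in KO as a family. Of 26 named in the clusters of chromosome 13 (chr13:21715711-23764412) 25 fell, with a median of -1.59, and all 5 on chromosome 3 (chr3:96238479-96270192) fell. Hist1h4a was at 13.48 in KO with IL-4 and 15.15 in KO untreated (-1.67), whereas in WT it was at 14.50 with IL-4 and 14.51 untreated. Hist1h2bm, of the H2B group, was at 9.45 with IL-4 and 11.47 untreated in KO (-2.02), and its WT difference was 0.01. The exception was the linker histone gene Hist1h1c, at 9.82 with IL-4 and 9.59 untreated in KO (0.23), and it was also the only one that the WT table listed. The others were named through the genotype table only, whose comparison used the KO IL-4 array, so their fall was partly selected. Copies are nearly identical in sequence, and Hist2h3c1 and Hist2h3c2 had the same values on every array, so these are not separate measurements.

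In the promoters of the mitosis list, CCAAT and TTTGAA were frequent. The Ccnb2 window above holds 3 CCAAT matches before the start and 2 TTTGAA matches. All 8 named list members with a promoter held each motif, and over the 45 of the whole list with a promoter 73.3% held CCAAT and 71.1% held TTTGAA. Over all 27025 genes 41.1% held CCAAT and 20.2% held TTTGAA.

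**Figure D5:**
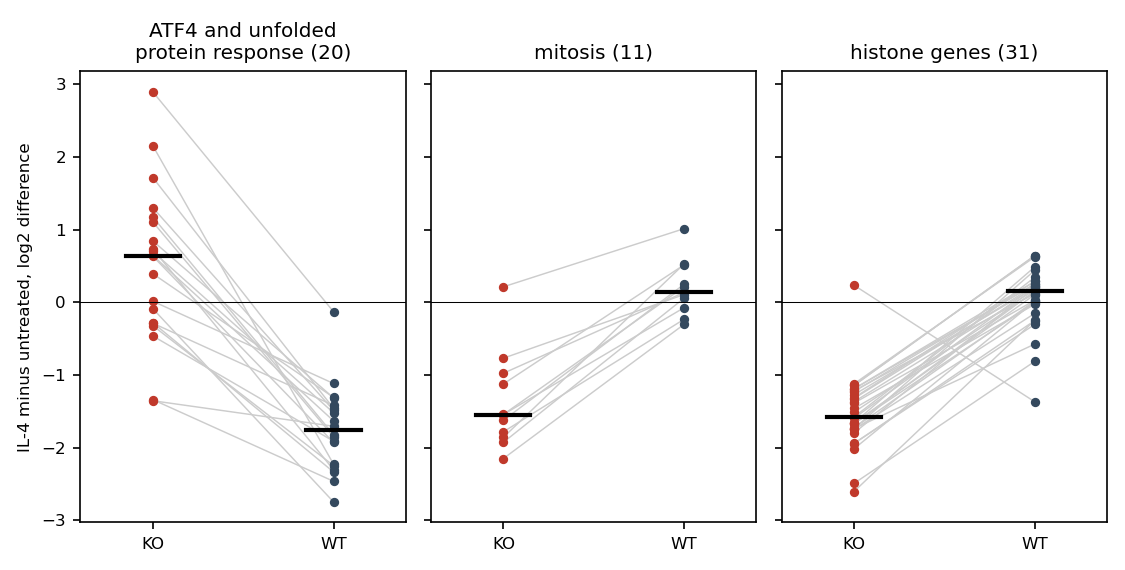
Log2 difference of IL-4 minus untreated (vertical axis) in KO (left in each panel) and WT (right) for the named members of the ATF4 list, the mitosis list and the histone clusters, with the number of clusters in parentheses. Grey lines join the values of a cluster and black bars are medians; all 20 lines of the ATF4 list go down towards WT, and all 11 of the mitosis list go up.

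Some clusters changed in KO and barely in WT. A KO change of at least 2-fold with a WT difference under 0.5 log2 was seen for 356 of the 11456 filtered clusters. Of these 94 were named, 18 higher and 76 lower, all through the genotype table only. Clusters of that table alone fell more often than they rose (33.8% against 11.1%). Many of the 76 were histone copies, which are not separate measurements. The excess of named falls was therefore partly selected. Besides Slc16a3, Slc7a11, Hist2h4, Fst and Ccnb2, the largest were Ttc9, at 9.55 in KO with IL-4 and 6.05 in KO untreated (3.49), Rassf6 (3.07), LOC102634333 (2.85), Slco1a5 (-2.57) and Hscb (-2.19). The last 4 were low on both KO arrays. Ifitm3, an interferon-induced membrane protein, was at 10.89 in KO with IL-4 and 12.18 in KO untreated (-1.29), whereas in WT it was at 13.56 with IL-4 and 11.53 untreated (2.04). Ifitm2, of the same gene family, fell by 1.96 in KO, and its WT difference was 0.57. Ifitm3 stood in both tables and Ifitm2 in the genotype table only, so their contrasts with WT were partly selected. Across all filtered clusters the difference between the KO and the WT response had a robust SD of 0.53 log2, and no test between genotypes was possible.

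The tissue label was checked on the markers that had a symbol. Of 18 keratinocyte identity genes 4 were named, and all were above 11 on both KO arrays: Epcam was at 15.14 with IL-4 and 13.23 untreated, Itgb4 and Krt16 are given above, and Ly6d, a surface protein, was at 11.89 with IL-4 and 16.04 untreated (-4.15). Of 14 melanocyte markers 6 were named, with values from 5.66 to 13.46 in KO with IL-4 and from 4.62 to 12.61 in KO untreated; Pmel fell (-1.58) and Slc24a5 rose (1.04). Of 21 fibroblast markers only Sparc and Vim were named, and they too were above 11 on both KO arrays. Sparc was at 11.96 with IL-4 and 12.00 untreated (-0.04), and Vim at 11.52 with IL-4 and 11.41 untreated (0.12). A level above 11 was therefore not particular to keratinocyte markers. Of 28 leukocyte markers 4 were named, with Cd68 lower (-1.38) and Cd14 higher (1.18), of 12 endothelial markers only Flt1 (0.45), and of 8 Y-linked genes 3, with Kdm5d higher (1.51). In a culture, fewer cells of a type and less RNA per cell cannot be told apart, and the part of other cell types in the response was not tested.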

How the data were processed

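Each of 4 RNA samples from primary mouse keratinocytes was hybridised to 1 Clariom S array. The authors deposited log2 expression values, made with RMA in Affymetrix Expression Console 1.4 per the submitters' processing notes; the design text names the Exon Array Computational Tool instead. Because RMA equalises the arrays' distributions, a shift shared by most genes cannot be seen. Values reach 19.9, above the 16 of a 16-bit count, for which the sources used here give no reason. Symbols came from the 2 comparison tables the authors deposited, annotated with na36 on mm10 per the file headers; their log2 columns matched the arrays to within 0.014 and 0.068 and were not used otherwise. Of 2560 named symbols 2518 matched RefSeq GRCm38.p6, which gave positions and promoters.

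A log2 difference of 1 array a side was computed with Python 3.11.15 and pandas 2.3.3, and counted at 2-fold. Other scalings used limma 3.58.1. The counting was tested on simulated data with a noise level set beforehand. That test checks the counting only and does not show how often noise on these arrays passes 2-fold. Labels name the samples separately, and nothing says how many animals they came from.

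Named genes were the 20 largest rises and falls, of each of 37 gene lists up to 6 largest changes, 4 against the majority and 3 bright members under 2-fold, all marker genes, the 10 largest changes in KO with a WT difference under 0.5, all changes in opposite directions, and gene families with at least 4 neighbours. Some genes are not reported here. Further list members were named after their values were seen, for their known role. The members, lists and rules were chosen with earlier results of these data known. Alternatives were the level filter, the scaling, the threshold and the table that names a gene.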

Additional observations from a re-analysis of the deposited data

Results flagged for a closer look

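Filtered clusters past 2-fold in both genotypes but in opposite directions numbered 9, all with a single symbol, and the difference between the genotypes was not tested for any of them. The response was higher in KO than in WT by 4.38 log2 for Stc2, 3.17 for Trib3, 2.99 for the amino acid transporter gene Slc7a3, 2.95 for the mitochondrial gene Pck2, 2.79 for Mthfd2, of mitochondrial folate metabolism, 2.45 for Aldh18a1, of proline synthesis, and 2.10 for the mTOR inhibitor gene Deptor. In each of these 7 the KO difference was positive, from 1.05 for Deptor to 2.15 for Stc2, and the WT difference negative, from -1.04 for Deptor to -2.22 for Stc2. The KO values of Stc2, Slc7a3 and Pck2 were under 9.21 on both arrays.

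The response was lower in KO for Ifitm3, by -3.32, and for the nucleosome-binding protein gene Hmgn5, by -2.32. Hmgn5 was at 7.20 in KO with IL-4 and 8.47 in KO untreated, whereas in WT it was at 7.73 with IL-4 and 6.68 untreated, all under 9.21.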

How the results depend on the processing

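Each group had 1 array. No paired analysis was possible because the labels give no replicate numbers to pair, and no array could be left out. A level filter at 9.21 left 653 rises and 721 falls in KO, from 6139 clusters, and a 4-fold threshold 197 rises and 394 falls. Without the filter there were 1192 and 1207. Median centring gave 1111 rises and 1051 falls, cyclic loess 888 and 1228, and quantile scaling 1023 and 1119. No count of these 4 differed from the reported one by over 1.5 times, but which direction was the more frequent changed with median centring.

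Of 156 recounts of list members (26 counts of at least 5 under 6 alternatives), all but 5 were within 1.5 times of the reported count. The 9.21 filter left 3 rises on the junction list, 5 falls on the antimicrobial list and 2 falls on the matrix list, since fewer clusters were counted. Counting WT table members alone, which was added after seeing the data, left 3 falls on the matrix list and 0 on the mitosis list, since 1 mitosis gene was left. Of 631 single clusters of the lists, families and named genes, none changed sign past 2-fold under the 3 other scalings, and the largest move was 0.20 log2. Cyclic loess took 14 of them under 2-fold and 13 past it. The KO minus WT differences of Hmgb1 and the WT counts kept direction and stayed within these limits under cyclic loess. Signal close to that of control rows limits the 422 rises and 404 falls that were low on both KO arrays.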
